A study of Mus musculus with 9 samples.

Results

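The genes described are those of the proteasome, its activators and its dedicated assembly factors in sorted mouse mammary epithelial cells. They were taken by symbol, as every gene whose symbol begins with Psma, Psmb, Psmc, Psmd, Psme, Psmf or Psmg followed by a number, without the immunoproteasome genes Psmb8, Psmb9 and Psmb10. This gave 47 members among 23951 gene rows, and 45 of the 47 were at 1 FPKM (fragments per kilobase of transcript, scaled to library size) or more in at least 3 libraries and could be tested. Female mice carried a Rosa26 reporter in which Cre recombinase removes a stop and switches on yellow fluorescent protein (YFP). All mice received Ad-K8-Cre, an adenovirus that expresses Cre from the promoter of keratin 8, a luminal keratin, by injection into the mammary ducts, and YFP+ cells were sorted 1 month later. The 3 genotypes were the reporter alone (WT), Trp53L/L with the reporter (p53-null), and Trp53L/L;Brca1L/L with the reporter (p53/Brca1-null), with 3 libraries each, on a mixed genetic background. The labels give neither the age of the mice nor the animal behind each library, and p-values therefore cover only the spread among these libraries, which may be technical. Recombination rests on a keratin 8 promoter carried by a virus, so cells outside that lineage that took up the virus and reached the sort cannot be told apart by the labels.

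The 26S proteasome degrades proteins that carry a ubiquitin chain. Its 20S core is a barrel of stacked rings, with outer rings of alpha subunits (Psma genes) that gate the entrance and inner rings of beta subunits (Psmb genes), of which Psmb5, Psmb6 and Psmb7 hold the active sites. The 19S regulatory particle has a ring of ATPases (Psmc genes) that unfold and feed in the substrate, and non-ATPase subunits (Psmd genes) that bind ubiquitin and remove it. Psmd5, Psmd9 and Psmd10 are chaperones that help the ATPase ring to form and then leave, and Psmg1 to Psmg4 do the same for the core. Psmd10 is also known as gankyrin, an oncoprotein that binds the p53 ubiquitin ligase Mdm2 and the retinoblastoma protein. Psme1 and Psme2 form the PA28 activator, Psme3 is PA28 gamma, Psme4 is PA200, and Psmf1 is the inhibitor PI31. Transcription of many subunit genes is raised together by the factor Nfe2l1 when proteasome activity is low.

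The values are FPKM, whose sums per library lay between 359976 and 433880, while the read depth is unknown. Genes at 1 FPKM or more numbered 4839 to 7320 in WT, 6286 to 9767 in p53-null and 7332 to 8213 in p53/Brca1-null libraries. The luminal keratins Krt8 and Krt18 were at 1136 FPKM or more and 1460 FPKM or more in every library. Trp53 stood at 1.35 to 25.5 FPKM in WT, 0.858 to 55.7 in libraries labelled p53-null and 1.88 to 26.5 in those labelled p53/Brca1-null, and Brca1 was listed at 0 in 8 of 9 libraries, so gene-level values did not check the genotypes. Of the markers of other cells, the summed FPKM of 14 immune genes lay between 2750 and 8091 in WT, 2952 and 6419 in p53-null and 8995 and 14486 in p53/Brca1-null libraries. Cd79a was listed at 0 in all WT libraries. The 7 endothelial genes summed to 0.0262 to 94.7, 22.5 to 560.4 and 47.2 to 169.9 FPKM in the same order, with Kdr listed at 0 in WT and in p53/Brca1-null libraries. The 5 red blood cell genes summed to 24.3 to 149.4, 34.5 to 232.6 and 56.9 to 944.7 FPKM, and the 7 adipocyte genes to 149.3 to 1623, 654 to 5301 and 333 to 1461, with Lep and Plin1 at 0 in every library. The 6 fibroblast genes summed to 71.1 to 200.2, 81.0 to 136.5 and 47.3 to 458 FPKM, the 8 basal genes to 356 to 552, 299.7 to 1404 and 369 to 535, and the 6 luminal genes to 5527 to 8754, 3414 to 14682 and 4501 to 6640.

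WT replicate 1 stood apart over all genes. Among 2199 genes at 20 FPKM or more in WT replicate 2, 890 (40.5%) had a value in WT replicate 1 that was between 5% and 15% of it, with a median share of 8.365%. In the 71 other ordered pairs of libraries that share of genes was between 0.648% and 23%. Over the members alone this link to WT replicate 2 did not stand out, with 9 of 33 in the band (27.3%) against 18.9% to 33.3% when WT replicate 1 was set against each of the other 7 libraries. The 9 were Psmc5, Psmc3, Psmc2 and Psmc6 of the ATPase ring, Psma5, Psmb7, Psmd2, Psmd3 and Psmg3. Psmc5 stood at 7.43 FPKM in WT replicate 1, 103.5 in WT replicate 2 and 110.5 in WT replicate 3, and Psmb7 at 6.27, 67.4 and 91.9. Other members were high in the same library, so it was not low throughout: Psmd14, the subunit that cuts ubiquitin off the substrate, stood at 233.7 FPKM there against 17.8 and 25.4 in WT replicates 2 and 3. The median differences from WT, and those of several members, are therefore also given below without WT replicate 1.

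**Figure D1:**
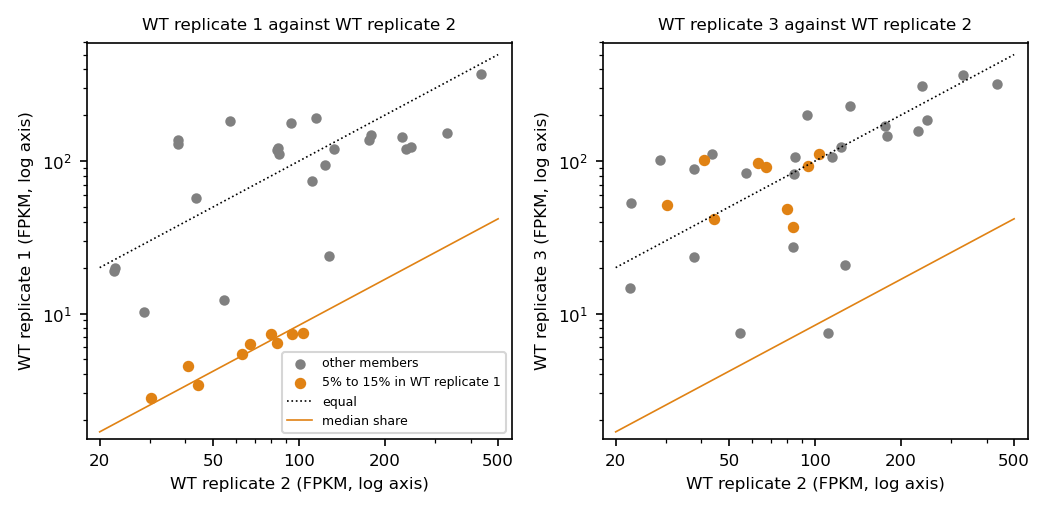
FPKM of the 33 members at 20 FPKM or more in WT replicate 2, in WT replicate 1 (left) and WT replicate 3 (right) against WT replicate 2, both axes logarithmic. The 9 members in orange were chosen for lying between 5% and 15% of WT replicate 2 on the left, around the line of the 8.365% median share of all genes, and scatter on both sides of the line of equal values on the right.

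The subunits were abundant. The median tested member stood at 19.8 to 82.8 FPKM depending on the library, against 0.955 to 7.52 for the median of all tested genes. In every one of the 9 libraries 35 of the 47 members were at 1 FPKM or more, and 22 at 10 FPKM or more. FPKM is scaled to transcript length, so members can be ranked. By median over the 9 libraries the highest were Psma7 (331.5 FPKM), Psme2 (331.3), Psmb6 (237.5), Psme1 (176.4), Psma2 (175.2) and Psmb1 (164.4). Psma7 ranged from 152.2 to 478.6 FPKM and Psme2 from 255.4 to 522.4, so that the order of these neighbours changed from library to library. The median member of the core stood higher than that of the regulatory particle, at 109.6 FPKM for 7 alpha and 148.1 for 7 beta subunits against 79.1 for 6 ATPases and 49.4 for 11 non-ATPases. Among the members, the assembly factors other than Psmg4 had medians below that of any tested subunit of the core or regulatory particle. The medians were 1.94 (Psmd10), 1.99 (Psmd5) and 4.61 FPKM (Psmd9) for the ATPase ring chaperones. For the core chaperones they were 4.96 (Psmg2), 5.71 (Psmg1), 18.3 (Psmg3) and 43.6 FPKM (Psmg4), the last within the 20.6 to 114.9 FPKM of the non-ATPases. At the bottom, Psma8, the alpha subunit of germ cells, was listed at 0 in all 9 libraries, and Psmb11, the beta subunit of the thymus, in 7 of 9 with a highest value of 0.00222 FPKM.

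The summed FPKM of the 47 members varied little. It was 0.880%, 0.981% and 0.994% of all FPKM in WT libraries, 1.07%, 1.05% and 1.01% in p53-null and 1.07%, 0.857% and 1.01% in p53/Brca1-null libraries. Every p53-null share lay above every WT share, a difference that was not tested. The p53/Brca1-null shares overlapped those of both other genotypes, and the lowest share was in a p53/Brca1-null library. Single members varied more. Of these 4 classes of subunit the beta ring was the steadiest, with a median ratio of highest to lowest library of 2.75 over its 7 tested subunits, against 6.94 for the alpha ring, 14.9 for the ATPases and 18.2 for the non-ATPases. Without WT replicate 1 these ratios were 1.89, 4.07, 3.08 and 3.87. The median ATPase stood at 7.40 FPKM in WT replicate 1 and between 62.5 and 109.0 in the other 8 libraries. This was not so for every ATPase, since Psmc1 and Psmc4 stood at 129.3 and 122.4 FPKM in WT replicate 1 beside 5.41 to 7.43 for Psmc2, Psmc3, Psmc5 and Psmc6. In the assembled particle these 6 subunits form 1 ring. The median of the 7 tested beta subunits was also lowest in WT replicate 1, but only just. It was 119.9 FPKM there, against 120.4 to 167.7 in the other 8 libraries. Of the 45 tested members 16 (35.6%) had their lowest value in WT replicate 1, against 23.5% of all tested genes. Another 7 (15.6%) had their highest there, against 11.5%.

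**Figure D2:**
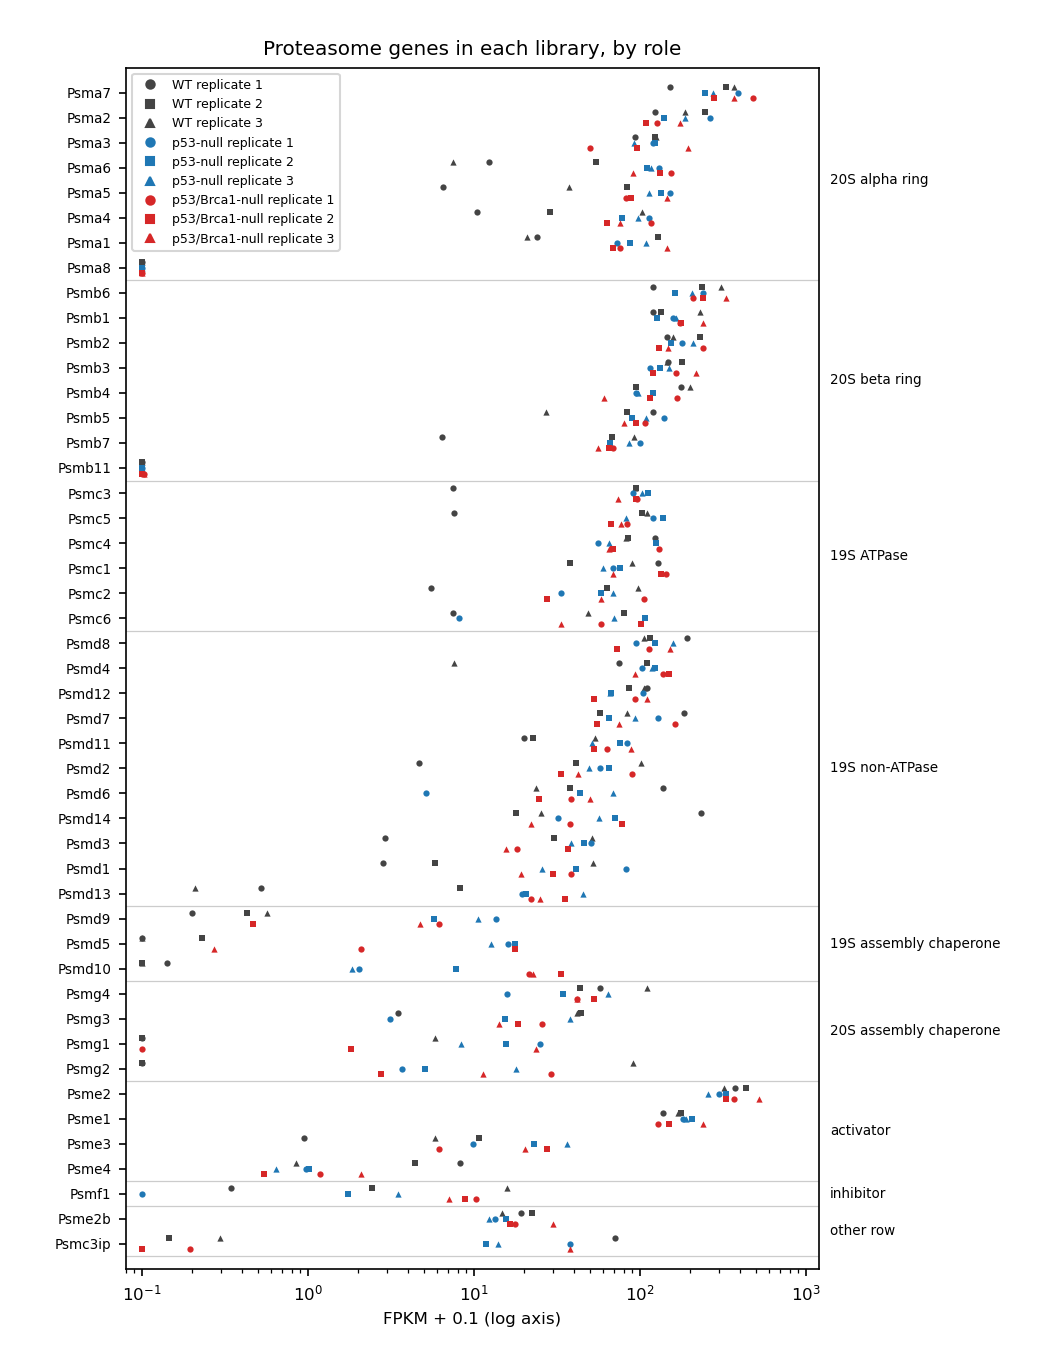
FPKM plus 0.1 (log axis) of the 47 members in each of the 9 libraries, in rows grouped by role and ordered by median, with color for genotype and shape for replicate. Many core and regulatory particle subunits have WT points to the left of the rest, in some rows from more than 1 WT library, as for Psma6 and Psmd1. Psmd6 and Psmc6 have a low p53-null point, and Psmd14 has a WT point far to the right. The assembly chaperones spread over the axis, and Psmd10, Psmd5 and Psmd9 have all WT points below 1 FPKM.

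Promoter sequences show what members share outside these values. RefSeq's table for GRCm38.p6, a later build than the mm9 of the deposited values, held 42 promoters for 39 of the 47 members, and the 250 bases before each start were searched on both strands for 3 motifs. The members without an entry were Psma8, Psmb1, Psmb2, Psmb7, Psmc3, Psmd3, Psmd7 and Psmg2. TGACNNNGC is a form of the antioxidant response element that Nfe2l1 binds, CCAAT is the core of the NF-Y box, and CCGGAAG is a core bound by ETS factors. TGACNNNGC was in 5 of 42 member promoters (11.9%), of Psmb5, Psmb6, Psmc6, Psmd12 and Psmd9, against 12% of 9160 promoters of tested genes and 10.2% of all 32851. CCAAT was in 14 (33.3%), against 34.7% and 33.8%. CCGGAAG was in 14 (33.3%), from 13 genes, against 14% and 6.91%. The median GC content of these windows was 57.6% for members, 60% for tested genes and 52.4% for all. No motif contains another, and a match is only a match of letters. The promoters printed here are those of the 3 ATPase ring chaperones and of Psma6 and Psmd13, the members on which the comparisons below turn, and of Psmb5 and Psmc1 as examples of TGACNNNGC and CCGGAAG near the start. Capitals mark any of the 3 motifs, and each sequence is the gene's own strand, 5′ to 3′, ending at the base before the start.
Psmd10, chrX:140956712-140956961, minus strand: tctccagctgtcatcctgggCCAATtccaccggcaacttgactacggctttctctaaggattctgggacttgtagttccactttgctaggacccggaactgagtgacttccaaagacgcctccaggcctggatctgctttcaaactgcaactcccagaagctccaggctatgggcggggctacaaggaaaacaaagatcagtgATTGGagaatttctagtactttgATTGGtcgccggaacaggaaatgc
Psmd5, chr2:34870963-34871212, minus strand: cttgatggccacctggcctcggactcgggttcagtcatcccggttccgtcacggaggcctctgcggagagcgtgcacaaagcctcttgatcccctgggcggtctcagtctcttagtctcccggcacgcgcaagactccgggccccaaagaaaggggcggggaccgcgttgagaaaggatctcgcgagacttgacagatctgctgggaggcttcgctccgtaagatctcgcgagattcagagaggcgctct
Psmd9, chr5:123227940-123228189, plus strand: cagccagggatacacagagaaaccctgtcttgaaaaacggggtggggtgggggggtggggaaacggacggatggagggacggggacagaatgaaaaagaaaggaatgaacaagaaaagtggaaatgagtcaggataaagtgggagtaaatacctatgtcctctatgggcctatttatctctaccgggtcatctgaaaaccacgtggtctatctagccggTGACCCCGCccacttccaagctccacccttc
Psma6, chr12:55398575-55398824, plus strand: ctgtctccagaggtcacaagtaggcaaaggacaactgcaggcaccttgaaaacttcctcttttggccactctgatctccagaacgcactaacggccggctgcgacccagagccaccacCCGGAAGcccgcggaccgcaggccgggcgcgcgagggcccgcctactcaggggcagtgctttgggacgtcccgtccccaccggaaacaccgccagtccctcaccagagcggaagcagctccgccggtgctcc
Psmd13, chr7:140882144-140882393, plus strand: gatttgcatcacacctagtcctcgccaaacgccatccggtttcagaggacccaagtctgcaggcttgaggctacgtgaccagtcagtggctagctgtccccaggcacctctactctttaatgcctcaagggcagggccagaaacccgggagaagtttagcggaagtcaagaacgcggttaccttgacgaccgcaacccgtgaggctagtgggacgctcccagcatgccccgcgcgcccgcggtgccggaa
Psmb5, chr14:54617996-54618245, minus strand: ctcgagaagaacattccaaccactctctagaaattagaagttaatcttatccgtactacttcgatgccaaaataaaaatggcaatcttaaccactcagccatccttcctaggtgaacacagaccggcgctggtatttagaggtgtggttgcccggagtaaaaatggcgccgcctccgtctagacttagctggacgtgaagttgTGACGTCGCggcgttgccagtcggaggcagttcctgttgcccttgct
Psmc1, chr12:100109952-100110201, plus strand: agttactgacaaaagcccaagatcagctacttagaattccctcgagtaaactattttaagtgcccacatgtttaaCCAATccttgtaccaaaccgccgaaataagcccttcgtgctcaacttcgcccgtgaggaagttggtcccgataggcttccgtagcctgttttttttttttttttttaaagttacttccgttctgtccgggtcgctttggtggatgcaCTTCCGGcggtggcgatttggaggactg
The Psmd10 promoter held 3 CCAAT boxes, whose first bases lie 230, 47 and 24 bases before the start, and neither of the other motifs. Psmd9 held TGACNNNGC at 31 bases and Psmb5 at 47 bases before the start. Psmd5 and Psmd13 held none of the 3. For Psma6, which has 2 starts in the table, the promoter shown held CCGGAAG at 132 bases, and Psmc1 held it at 28 bases and CCAAT at 175.

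The comparison of p53-null with WT asks what differed with loss of p53 alone. No member passed, with limma adjusted p-values over all 9503 tested genes from 0.152 to 0.990, where 0.0105% of all tested genes were called. The tested members ranged from -1.31 to 3.96 in log2 difference, on the log2(FPKM + 1) scale used throughout, and 28 of 45 lay above 0 (62.2%) against 70.2% of all tested genes. At an unadjusted p under 0.05, 8 members were higher (17.8%) and 0 lower, against 10.8% and 0.989% of all tested genes. They were Psma4, Psma5 and Psma6 of the alpha ring, Psmd13 of the 19S lid and the chaperones Psmd5, Psmd9, Psmd10 and Psmg1. The groups did not overlap for 8 members (17.8%), all higher in p53-null, against 14.1% of all tested genes higher and 2.16% lower. The median log2 difference over the members was 0.35 and that of all tested genes 0.58, and without WT replicate 1 they were 0.07 and 0.34. The order of the 2 medians turned with quantile normalization (0.29 against 0.01), with the detected-gene number as covariate (0.31 against 0.01), without a filter (0.31 against 0.29) and with the share of WT replicate 2 subtracted (0.79 against 0.72). Without WT replicate 1 there were also 8 members at p under 0.05, all higher (17.8%, against 7.28% of all tested genes), but not the same 8. Psma4, Psmd10 and Psmg1 dropped out, and Psmd4, Psmb5 and Psmc3ip came in, of which Psmc3ip is a recombination gene. Groups then did not overlap for 11 higher and 2 lower (24.4% and 4.44%, against 17.4% and 7.49%).

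The 4 members with the smallest p were Psma6, Psmd5, Psmd13 and Psmd9. Psma6, an alpha ring subunit, stood at 12.2, 54.5 and 7.40 FPKM in WT, against 130.5, 109.6 and 115.9 in p53-null libraries. All 3 p53-null libraries lay above all WT libraries, and the log2 difference was 2.70 ± 0.69 (SE, limma adjusted p = 0.152). Psmd13, a non-ATPase subunit of the 19S lid, stood at 0.419, 8.17 and 0.109 FPKM in WT, against 19.3, 20.6 and 45.6 in p53-null libraries. Its groups did not overlap either, with a log2 difference of 3.49 ± 1.00 (limma adjusted p = 0.187), and WT replicate 2 was the highest of its WT libraries, as it was for Psma6. WT replicates 1 and 3 were under 1 FPKM, so Psmd13 passed the filter only with the help of null libraries. The size of its difference rests in part on the pseudocount, and over the other settings it ranged from 2.31 to 4.77. The other pair are chaperones of the ATPase ring. Psmd5 was listed at 0, 0.131 and 0 FPKM in WT, against 15.9, 17.5 and 12.6 in p53-null libraries, a log2 difference of 3.96 ± 1.04 (limma adjusted p = 0.167). Psmd9 stood at 0.0993, 0.331 and 0.466 FPKM in WT, against 13.5, 5.63 and 10.5 in p53-null libraries, a log2 difference of 3.01 ± 0.94 (limma adjusted p = 0.217). Every WT library was under 1 FPKM for both, so the size of these differences rests on the pseudocount, and with a pseudocount of 0.1 they were 6.86 and 4.69 on the log2 scale. Both genes passed the filter of 1 FPKM in at least 3 libraries only through null libraries, so their direction was close to fixed in advance.

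By role, the differences were unequal. The 3 ATPase ring chaperones had log2 differences of 2.02 to 3.96 with no overlap between groups. All 3 were under 1 FPKM in every WT library and passed the filter only through null libraries. A difference above 0 was therefore close to fixed in advance, and their contrast with the other roles is not evidence about the role. Among 7 alpha subunits, 6 lay above 0 with a median of 1.12, and the medians were 1.01 for 11 non-ATPases and 0.47 for 6 ATPases. Without WT replicate 1 these 3 medians were 0.75, 0.41 and -0.035, and that of the chaperones was 2.89 in place of 3.01. The 7 beta subunits had a median of -0.04, with 3 above 0 and 4 below, and of -0.23 without WT replicate 1. The catalytic subunits show the spread. Psmb5, the chymotrypsin-like subunit, stood at 119.1, 83.5 and 27.2 FPKM in WT, against 139.1, 89.4 and 108.2 in p53-null libraries. Psmb6, the caspase-like subunit, stood at 119.9, 237.5 and 309.4 FPKM against 241.0, 162.8 and 205.2, and Psmb7, the trypsin-like subunit, at 6.27, 67.4 and 91.9 against 99.4, 66.4 and 85.3. For all 3 the groups overlapped. Without WT replicate 1, Psmb5 lay at 1.19 ± 0.51 with no overlap (limma adjusted p = 0.493). Psmb6 then lay at -0.43 and Psmb7 at 0.07, both with overlap. Of the PA28 activator pair, Psme1 stood at 137.3, 176.4 and 169.6 FPKM in WT, against 182.6, 206.7 and 189.3 in p53-null libraries, and Psme2 at 374.7, 436.6 and 321.6 against 301.6, 331.3 and 255.4. The Psme1 groups did not overlap, with a log2 difference of 0.26 ± 0.42, and Psme2 lay the other way at -0.35 ± 0.34 with overlap (limma adjusted p of 0.838 and 0.719). In bulk RNA, fewer cells of a type and less RNA per cell cannot be told apart.

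**Figure D3:**
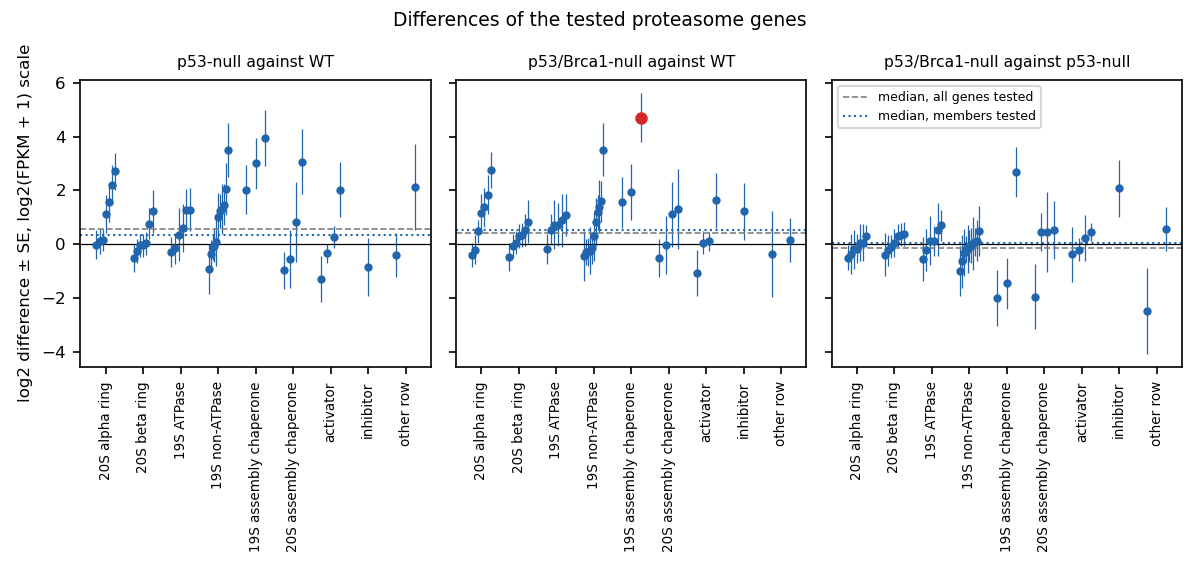
Log2 difference with its standard error (limma, log2(FPKM + 1) scale) of the 45 tested members by role, in the 3 comparisons, with the medians of all tested genes (dashed) and of the members (dotted). The red point is Psmd10 in p53/Brca1-null against WT, the 1 member called. The beta ring runs from -0.53 to 1.22 in p53-null against WT and from -0.49 to 0.83 in p53/Brca1-null against WT. Between the null genotypes it runs from -0.39 to 0.38.

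The comparison of p53/Brca1-null with WT asks what differed with loss of both genes. Psmd10, the ATPase ring chaperone gankyrin, rose and was the 1 of 45 tested members that passed, where 0.253% of all tested genes were called (0.221% higher, 0.0316% lower). It stood at 0.0405, 0 and 0 FPKM in WT, against 21.3, 33.4 and 22.7 in p53/Brca1-null libraries. The groups did not overlap, and no WT library reached 1 FPKM. Psmd10 thus passed the filter only through libraries of the null genotypes, so a difference above 0 from WT was close to fixed in advance. The log2 difference was 4.70 ± 0.92 (limma adjusted p = 0.0423). Its size rests on the pseudocount, and with a pseudocount of 0.1 it was 7.83. In p53-null libraries Psmd10 stood at 1.94, 7.65 and 1.73 FPKM, so that all p53-null values lay above all WT values and below all p53/Brca1-null values. The call was close to the threshold and passed in 7 of 18 other settings, with adjusted p from 0.0149 to 0.206. The call did not survive leaving out WT replicate 1 (adjusted p = 0.0945) or WT replicate 2 (0.0788), p53-null replicate 2 (0.0708) or 3 (0.0746), or p53/Brca1-null replicate 1 (0.133), 2 (0.206) or 3 (0.137). The summed immune markers of these libraries, given above, were also all higher in p53/Brca1-null than in the other genotypes, without overlap. Singly, 12 of the 13 tested immune genes lay above 0 against WT, 7 of them without overlap. The leukocyte gene Ptprc lay below, at -0.49. The part of immune cells in the Psmd10 value was not tested.

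**Figure D4:**
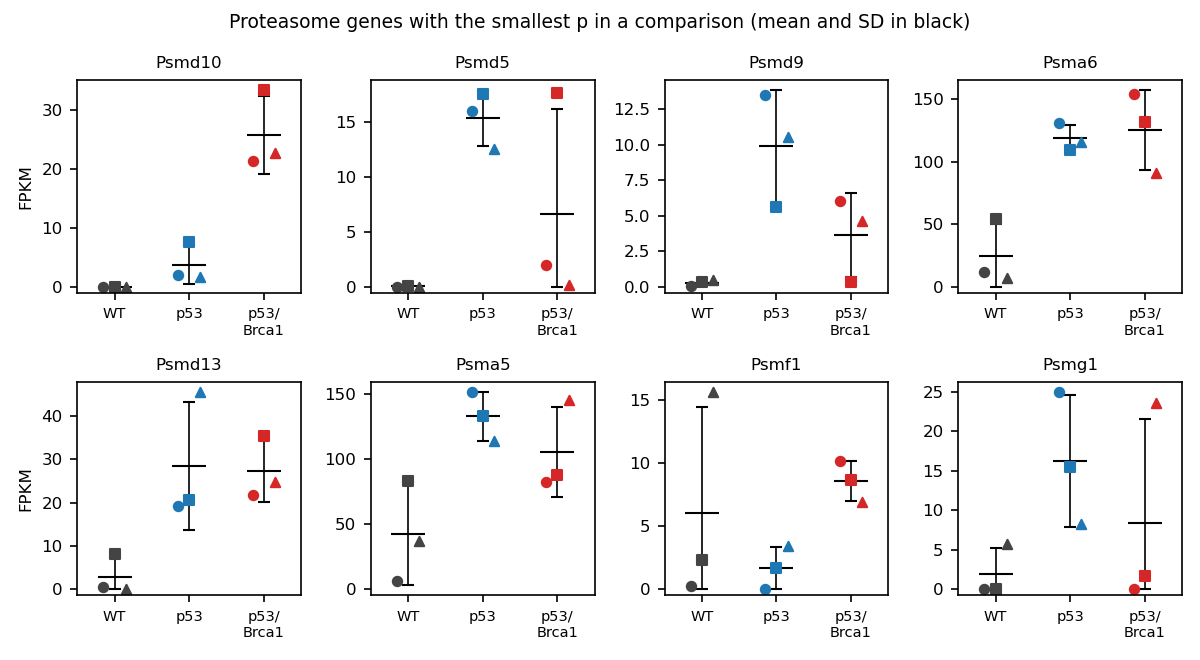
FPKM of the 8 members with the smallest p in a comparison, in each library (points, shaped by replicate, circle 1, square 2, triangle 3), with the mean and SD of each genotype (n = 3) in black, drawn no lower than 0. Psmd10 is near 0 in WT, 1.73 to 7.65 in p53-null and 21.3 to 33.4 in p53/Brca1-null, whereas Psma6 and Psmd13 are at similar heights in both null genotypes.

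The other members did not pass. At an unadjusted p under 0.05, 4 members were higher (8.89%) and 0 lower, against 10.1% and 2.09% of all tested genes, and for 4 (8.89%) the groups did not overlap, all higher, against 12.7% higher and 3.83% lower. Members ranged from -1.08 to 4.70 in log2 difference, and 31 of 45 (68.9%) lay above 0, against 63.6%. The members' median log2 difference was 0.52 against 0.41 for all tested genes, and without WT replicate 1 it was 0.15 against 0.20. The order also turned with a pseudocount of 0.1 (0.53 against 0.69), without WT replicate 2 (0.63 against 0.67) and without p53/Brca1-null replicate 1 (0.42 against 0.46). Without WT replicate 1, 4 members were higher at p under 0.05 (8.89%) and 0 lower, against 6.88% and 3.1% of all tested genes. Groups then did not overlap for 4 higher and 3 lower (8.89% and 6.67%), against 15.8% and 10.2% of all tested genes. Psma6 had 153.9, 131.3 and 91.1 FPKM in p53/Brca1-null, above every WT library, with a log2 difference of 2.75 ± 0.69 (limma adjusted p = 0.0939). It was called without WT replicate 2 (limma adjusted p = 0.0318), where its WT values of 12.2 and 7.40 FPKM remain. Psmd13 stood at 21.8, 35.4 and 24.8 FPKM, a log2 difference of 3.51 ± 1.00 (limma adjusted p = 0.1496), and its groups did not overlap. The limits of its WT values under 1 FPKM hold here too, and the difference ranged from 2.70 to 4.80 over the other settings. Psma5, an alpha subunit, stood at 6.42, 83.5 and 37.1 FPKM in WT, against 82.8, 88.3 and 145.6 in p53/Brca1-null libraries. WT replicate 2 lay inside the range of the p53/Brca1-null libraries, and the log2 difference was 1.84 ± 0.74 (limma adjusted p = 0.338). Psma5 is 1 of the 9 members in the band above, and without WT replicate 1 the difference was 0.86 ± 0.47 (limma adjusted p = 0.570). Both comparisons use the same WT libraries, so their likeness for Psma6 and Psmd13 is not independent.

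The other ATPase ring chaperones did not pass, and their difference from Psmd10 was not tested. Psmd5 had 1.99, 17.6 and 0.170 FPKM in p53/Brca1-null, which is a log2 difference from WT of 1.95 ± 1.04 (limma adjusted p = 0.459). The groups did not overlap, but only by 0.170 FPKM in p53/Brca1-null replicate 3 against 0.131 in WT replicate 2, both under 1 FPKM. Leaving out p53/Brca1-null replicate 2 brought the log2 difference to 0.85. Psmd9 stood at 6.02, 0.365 and 4.61 FPKM, a difference of 1.55 ± 0.94 (limma adjusted p = 0.515), and its replicate 2 lay within the WT range. Replicate 2 was thus the highest p53/Brca1-null library for Psmd5 and Psmd10 and the lowest for Psmd9. The core chaperones, which start the assembly of the alpha ring, were uneven within a genotype. Psmg1 was listed at 0, 0 and 5.71 FPKM in WT libraries, 24.96, 15.4 and 8.29 in p53-null, and 0, 1.72 and 23.6 FPKM in p53/Brca1-null. Psmg2 was listed at 0, 0 and 90.5 FPKM in WT libraries, 3.59, 4.96 and 17.9 in p53-null, and 29.1, 2.67 and 11.2 FPKM in p53/Brca1-null. In both, WT replicates 1 and 2 were listed at 0 while WT replicate 3 was not. Psmg3 stood at 3.37, 44.1 and 41.6 FPKM in WT libraries, 3.02, 15.4 and 38.1 in p53-null, and 25.6, 18.3 and 14.0 FPKM in p53/Brca1-null. Psmg4 stood at 57.4, 43.6 and 110.5 FPKM, at 15.7, 34.3 and 64.2, and at 42.0, 52.7 and 41.5 in the same order. For Psmg2, Psmg3 and Psmg4 all 3 genotypes overlapped.

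The catalytic subunits did not pass. Psmb5 had 107.3, 94.9 and 80.4 FPKM in p53/Brca1-null, Psmb6 at 209.1, 241.2 and 330.0, and Psmb7 at 68.5, 64.8 and 55.8. Against WT their log2 differences were 0.52 ± 0.59, 0.30 ± 0.43 and 0.83 ± 0.81, none of them called by limma (adjusted p of 0.744, 0.809 and 0.703). Without WT replicate 1 they were 0.95, -0.086 and -0.32, so Psmb6 and Psmb7 turned, and Psmb5 turned to -0.091 without WT replicate 3. For Psmd14 the values in p53-null were 32.2, 70.8 and 56.5 FPKM and in p53/Brca1-null 37.9, 78.3 and 21.8. These overlap each other and WT. Without WT replicate 1 the log2 difference of Psmd14 in p53-null from WT was 1.21 in place of 0.08, with no overlap (limma adjusted p = 0.608). In p53/Brca1-null it turned from -0.24 to 0.89, with overlap (limma adjusted p = 0.663). Psme1 and Psme2, which interferon gamma induces, stood at 128.8, 149.2 and 239.2 FPKM and at 370.5, 331.2 and 522.4 FPKM in p53/Brca1-null, with replicate 3 the highest for both. Their log2 differences from WT were 0.05 ± 0.42 and 0.09 ± 0.34 (limma adjusted p of 0.977 and 0.935), and both turned below 0 when p53/Brca1-null replicate 3 was left out, Psme1 also without WT replicate 1 (-0.056) and Psme2 without WT replicate 3 (-0.015). Psme3 stood at 0.844, 10.7 and 5.69 FPKM in WT libraries, 9.70, 22.8 and 36.3 in p53-null, and 6.08, 27.4 and 20.1 FPKM in p53/Brca1-null. With Psmd13 and Psmc3ip it was 1 of 3 members with a median of 10 FPKM or more that had a value under 1 FPKM in a library. Psme4, which caps the core in the nucleus, was the lowest tested member, at 8.12, 4.29 and 0.748 FPKM among WT libraries, 0.872, 0.911 and 0.538 in p53-null and 1.09, 0.445 and 1.97 in p53/Brca1-null.

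The comparison of p53/Brca1-null with p53-null asks what Brca1 loss added. No member passed by limma, with adjusted p from 0.642 to 0.999, where 0% of all tested genes were called. At an unadjusted p under 0.05, 1 member, Psmd10, was higher and 0 lower (2.22%), against 1.85% of all tested genes higher and 2.88% lower (4.74% in all). The groups did not overlap for 4 members higher (8.89%: Psmd10, Psmf1, Psmb1 and Psme2b) and 1 lower (2.22%: Psmd3), against 4.87% and 8.02% of all tested genes. Psmb1 and Psmd3 are named for this alone, after their values were seen: the beta subunit Psmb1 stood at 159.1, 126.7 and 164.4 FPKM in p53-null against 174.3, 175.7 and 238.8, and the 19S subunit Psmd3 at 50.7, 46.2 and 38.2 against 17.97, 36.9 and 15.5. The median log2 difference of the members was 0.02, with 23 above 0 (51.1%) and 22 below, against -0.16 and 42.9% above 0 for all tested genes. The order of these medians turned without p53/Brca1-null replicate 1 (-0.113 against -0.096). The 4 with the smallest p were Psmd10, Psmd5, Psmf1 and Psmg1. Psmd10 was higher in all 3 p53/Brca1-null libraries than in any p53-null library, with a log2 difference of 2.68 ± 0.92 (limma adjusted p = 0.642). Psmd5 lay at -2.01 ± 1.04 and Psmg1 at -1.96 ± 1.21 (limma adjusted p = 0.999 for each), and both overlapped. Psmf1, the inhibitor, was listed at 0, 1.65 and 3.39 FPKM in p53-null and stood at 10.2, 8.67 and 6.95 in p53/Brca1-null, which is a log2 difference of 2.07 ± 1.07 (limma adjusted p = 0.999). The null genotypes did not overlap for Psmf1, but WT, at 0.241, 2.31 and 15.6 FPKM, spanned both.

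The rule also took 2 genes that encode no dedicated subunit or factor. Psme2b is a copy of Psme2, and stood at 4.39% to 5.68% of the Psme2 value in every library, so that reads of the pair may have been split between them and its value is uncertain. Psmc3ip, a recombination gene that shares only the start of its symbol with the ATPase gene Psmc3, stood at 70.7, 0.0448 and 0.193 FPKM among WT libraries, 37.9, 11.6 and 13.9 in p53-null and 0.0938, 0 and 37.8 in p53/Brca1-null, and all 3 genotypes overlapped. Without these 2 genes the count of called members was the same in each comparison.

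Other genes of the pathway were read from a list of ubiquitin, shuttle, deubiquitinase and proteasome control genes, of which 29 were in the table and 28 tested. None was called by limma in any comparison. At an unadjusted p under 0.05, 3 were higher and 0 lower in p53-null against WT, 3 higher and 1 lower in p53/Brca1-null against WT, and 0 in either direction between the null genotypes. The higher ones were 10.7% of the list in each comparison with WT, against 10.8% and 10.1% of all tested genes. The first were Ubb, Nploc4 and Ubqln1, and the second Ubb, Nploc4 and, named after their values were seen, Adrm1 (higher), the ubiquitin receptor of the 19S cap, and the chaperone gene Hspb1 (lower). The polyubiquitin gene Ubb stood at 1104, 1432 and 1365 FPKM in WT libraries, 2923, 1921 and 1954 in p53-null, and 1549, 2540 and 2519 FPKM in p53/Brca1-null. Every null library lay above every WT library, and the log2 difference of p53-null from WT was 0.78 ± 0.25 (limma adjusted p = 0.229). Nploc4, a cofactor of the Vcp unfoldase, stood at 0.140, 1.57 and 1.22 FPKM in WT, against 10.2, 19.1 and 7.17 in p53-null libraries, a difference of 2.71 ± 0.97 (limma adjusted p = 0.283). Ubqln1, which shuttles ubiquitinated proteins to the proteasome, stood at 1.69, 23.5 and 0.534 FPKM in WT, against 35.6, 35.4 and 38.9 in p53-null libraries, a difference of 3.01 ± 1.08 (limma adjusted p = 0.288). Its p53-null libraries were alike and above all WT libraries, of which replicate 2 was again the highest. Of the immunoproteasome genes, Psmb8 stood at 241.1, 174.4 and 139.4 FPKM among WT libraries, 55.4, 137.7 and 169.7 in p53-null and 200.1, 136.8 and 113.8 in p53/Brca1-null. Psmb9 and Psmb10 ranged from 2.53 to 83.7 and from 5.55 to 108.1 FPKM over the 9 libraries, and none of the 3 was called in a comparison.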

How the data were processed

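RNA of 9 libraries was extracted with Trizol and sequenced from low-input SMARTer v4 libraries, per the labels' protocols. The deposited values were taken as FPKM, scaled by the authors to length and library size. The file header names no unit, and FPKM was inferred from the values. The genome build was mm9 per the submitters' processing notes. Aligner, quantifier and annotation: not given in the sources used here. From 24043 rows, 92 spike-in rows were left out. Genes that reached 1 FPKM in 3 libraries or more entered a fit with limma 3.58.1 in R 4.3.3 on log2(FPKM + 1), with 1 coefficient per genotype over all 9 libraries (6 residual degrees of freedom), intensity trend and robust moderation, checked on simulated data. Adjusted p-values are Benjamini-Hochberg over all 9503 tested genes of a comparison, called at 0.05.

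The members and lists were chosen with earlier results of these data known. Values per library are given for called members, the 4 with the smallest p per comparison, catalytic subunits, Psmd14, activators, inhibitor, core chaperones, members with a median of 10 FPKM or more but under 1 in a library, and the 3 pathway genes with the smallest p. Alternatives were a replicate block, only the 6 libraries compared, no trend or robust moderation, no filter or 1 at 5 FPKM, a pseudocount of 0.1, quantile normalization, the detected-gene number as covariate, and each library left out. After seeing the data, 2 were added: members without Psme2b and Psmc3ip, and WT replicate 1 with the 8.365% share of WT replicate 2 subtracted. Promoters are RefSeq's, GRCm38.p6, whose entries run on past the start. For 38 of 42 the last 30 bases of the entry, which lie after the start, were found in a transcript of their gene.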

Additional observations from a re-analysis of the deposited data

How the results depend on the processing

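The count of 0 called members held in all 19 other settings for p53-null against WT, and likewise between the null genotypes. For p53/Brca1-null against WT the 1 called member became 0 with the replicate block, with only the 6 libraries compared, with the detected-gene number as covariate, and when the share of WT replicate 2 was subtracted. With a library left out it was between 0 and 1, and without WT replicate 2 the 1 called member was Psma6 in place of Psmd10. The members' median log2 differences moved by less than 0.616, the pooled SD of the library medians within a genotype. That limit is wide, since it exceeds the medians themselves (0.35, 0.52 and 0.02), and a median could reach 0 within it. The medians ranged from 0.07 to 0.79 for p53-null against WT, 0.15 to 0.67 for p53/Brca1-null against WT and -0.11 to 0.11 between the null genotypes. Among the members followed through all settings, directions turned in p53/Brca1-null against WT. Psmb6 (-0.086), Psmb7 (-0.32) and Psme1 (-0.056) turned without WT replicate 1, and Psmb5 (-0.091) and Psme2 (-0.015) without WT replicate 3. Psme1 (-0.21) and Psme2 (-0.097) turned without p53/Brca1-null replicate 3, and Psme1 (-0.035) with the covariate. Psmd14, not followed through all settings, turned in the same comparison without WT replicate 1 (0.89). With a library left out, Psmb5 ranged from -0.091 to 0.95, Psmb6 from -0.086 to 0.59, Psmb7 from -0.32 to 1.52, Psme1 from -0.21 to 0.24 and Psme2 from -0.097 to 0.23. Same-numbered libraries of different genotypes were not paired by their deviations (9 correlations, -0.083 to 0.056; 2 of 9 libraries closest to their own number).

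Counts over all genes moved more. For p53-null against WT the 1 gene became 0 with only 6 libraries, 42 without trend and robust moderation, 17 with the smaller pseudocount, 0 with the covariate, and 0 to 8 with a library left out. For p53/Brca1-null against WT the 24 genes became 14 with the block, 9 with only 6 libraries, 78 without trend and robust moderation, 54 with quantile normalization, 56 with the smaller pseudocount, 4 with the covariate, 6 with the subtraction, and 3 to 73 with a library left out. Between the null genotypes, 0 became 1 with only 6 libraries. Quantile normalization moved the median of all genes from 0.58 to 0.01 and from 0.41 to -0.01, while the members' medians were then 0.29 and 0.32. The read depth is unknown, and values under 1 FPKM cannot be given a counting error. Psmd10, Psmd5 and Psmd9 rest on such values in every WT library, and Psmd13 in WT replicates 1 and 3.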
